A study of Homo sapiens with 8 samples.

Results

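The 10 genes described here are NFE2L2, which encodes the transcription factor NRF2, and 9 genes widely used as readouts of it: NQO1, HMOX1, GCLC, GCLM, SLC7A11, TXNRD1, SRXN1, AKR1C1 and AKR1B10. They were chosen by name, with earlier results of these data known, and are 10 of the 23391 genes counted. DU145 is an established human prostate cancer line, and DY131 is a synthetic ligand of the orphan nuclear receptors Esrrb and Esrrg. The 4 groups were DU145 cells carrying the empty pcDNA3.1 vector (DU145-pc3.1), DU145 cells carrying an Esrrb expression vector (DU145-Esrrb), and the same cells treated with 3 µM DY131. All cells were selected with Zeocin and were cultured in medium with charcoal-stripped serum. The study says that 2 biological replicates were pooled for each vector, and elsewhere describes 2 independent replicates of the transfected cells. Whether the 2 libraries of a group come from separate transfections is therefore unclear. The cells carrying each vector are called a pool here. An effect of Esrrb and a difference between these pools cannot be told apart. The duration of the DY131 treatment is not given in the sources used here, and the untreated groups received vehicle. Each group had 2 libraries, which the study describes as biological replicates.

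NRF2 is held in the cytoplasm by KEAP1, which presents it to a CUL3 ubiquitin ligase for degradation. Oxidants and electrophiles modify KEAP1, NRF2 then accumulates, pairs with a small MAF protein and binds antioxidant response elements near its target genes. The control is therefore mostly at the level of the protein, and the amount of NFE2L2 mRNA is not a measure of NRF2 activity. The targets make glutathione, keep thioredoxins and peroxiredoxins reduced, detoxify quinones and aldehydes and break down haem.

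The antioxidant response element core, written here as TGACNNNGC, was searched on both strands of the RefSeq promoters of GRCh38.p14, each running from 250 bases before to 50 bases after a start site. For 7 of the 10 genes a promoter was found, 9 promoters in all. The core was present in 3 of these promoters, belonging to GCLM and TXNRD1, against 13.3% of all 35116 promoters. None of these matches overlapped the AP-1 motif TGACTCA. The 130 bases before each of the 3 start sites are shown because the 2 genes differ in their response to DY131. Capitals mark the core, which reads in reverse complement where it lies on the other strand, and 1 core in the upstream TXNRD1 promoter ends 1 base past the printed stretch.
GCLM, chr1:93909431-93909560, minus strand: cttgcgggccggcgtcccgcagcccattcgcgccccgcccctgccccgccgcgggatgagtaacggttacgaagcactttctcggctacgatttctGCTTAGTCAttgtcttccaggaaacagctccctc
TXNRD1, upstream start, chr12:104215649-104215778, plus strand: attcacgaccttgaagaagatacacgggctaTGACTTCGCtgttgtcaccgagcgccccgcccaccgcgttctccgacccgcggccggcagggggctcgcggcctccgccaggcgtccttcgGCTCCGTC
TXNRD1, downstream start, chr12:104286902-104287031, plus strand: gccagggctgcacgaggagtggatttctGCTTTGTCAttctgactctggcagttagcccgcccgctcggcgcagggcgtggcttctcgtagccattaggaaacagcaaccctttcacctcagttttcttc
A match to these letters is a description of the sequence and does not show binding in these cells. The GCLM core lies 34 to 26 bases before the start site.

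The libraries held 7858743 to 11551690 counted reads, the 2 lowest being those of DY131-treated DU145-Esrrb cells. ESRRB was counted 0 to 3 times in the 4 DU145-pc3.1 libraries and 99 to 143 times in the 4 DU145-Esrrb libraries, which fits the labels. All 5 epithelial markers were counted in every library, KRT8 at 1064 to 1627 cpm (reads scaled to the effective library size), KRT18 and KRT19 at 374.3 to 1046, EPCAM at 76.9 to 122.9 and CDH1 at 62.3 to 165.5. By group mean KRT8 was highest (1622 cpm) and EPCAM (78.5) and CDH1 (67.8) lowest in DY131-treated DU145-Esrrb cells, and what part this has in the results was not tested. Of the markers of other cells, the leukocyte marker PTPRC had at most 1 read, DCN had none, PECAM1 had at most 8, and COL1A1 had 21 to 61. Of the prostate markers, KLK3 had no read and TMPRSS2 at most 1. The 2 libraries of DY131-treated DU145-pc3.1 cells differed more from each other (chi-square per degree of freedom 7.51 over genes) than those of the other groups (1.31 to 2.70). The tests below use 1 spread per gene for all 4 groups. Standard errors and adjusted p that involve this pair may therefore be too small. The threshold was an adjusted p below 0.05 (edgeR quasi-likelihood test, Benjamini-Hochberg over 13856 tested genes), genes past it are said to be called, and "rose" and "fell" are used for called genes alone. All 10 members passed the filter on low counts, 1 cpm in at least 2 libraries. AKR1C1 and AKR1B10 were below 1 cpm in every DY131-treated library and passed it through untreated libraries alone. Such a filter favours genes that fall with DY131, so the falls of these 2 are not independent of it. Fold changes are on the log2 scale with the standard error. In bulk RNA, a smaller share of cells that express a gene and less RNA per cell cannot be told apart.

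Among the 10 genes, DY131 was followed by a broad fall in DU145-pc3.1 cells and by a split response in DU145-Esrrb cells. In DU145-pc3.1 cells 8 of 10 fell and 0 rose, where 18.5% of all tested genes fell and 18.9% rose. In DU145-Esrrb cells 2 of 10 rose (HMOX1 and GCLM) and 5 fell (NQO1, GCLC, TXNRD1, AKR1C1 and AKR1B10), where 29.2% of all tested genes rose and 29.5% fell. The falls in each pool include AKR1C1 and AKR1B10, which passed the filter through untreated libraries alone. Between the untreated pools, 2 members were lower in DU145-Esrrb cells (HMOX1 and SRXN1) and 0 higher, against 2.50% and 1.68% of all genes. The median log2 fold change of the members was -0.39 for DY131 in DU145-pc3.1 cells, -0.07 for DY131 in DU145-Esrrb cells and -0.18 for Esrrb alone, and that of all genes was within 0.004 of 0 in each. The 2 DY131 responses differed for 6 members, each higher in DU145-Esrrb cells, where 16.1% of all genes differed in this direction and 17.6% in the other.

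These counts depend on single libraries. Without replicate 1 of DU145-pc3.1, which holds the highest counts of the aldo-keto reductases, 5 members were called for DY131 in DU145-pc3.1 cells. In DU145-Esrrb cells 4 were called without replicate 1 of DU145-Esrrb or without the first DY131-treated library. For the difference of the responses HMOX1, GCLM and SRXN1 were left without any 1 of the 4 DU145-Esrrb libraries. The study's further threshold, a 2-fold change, was passed by AKR1C1 and AKR1B10 under DY131 in each pool (4.19% of all genes in DU145-pc3.1 and 12% in DU145-Esrrb cells). It was passed by 0 members for Esrrb without DY131 (0.577% of all genes), for Esrrb under DY131 (8.21%) and for the difference of the DY131 responses (6.28%). AKR1C1 and AKR1B10 had passed the filter on low counts through untreated libraries alone, which favours such falls. The study itself used an exact test on pairs of groups and reported no gene altered by DY131 in DU145-pc3.1 cells. The calls given here for that comparison, from another test, thus differ from the study's result, and why they differ was not tested.

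**Figure D1:**
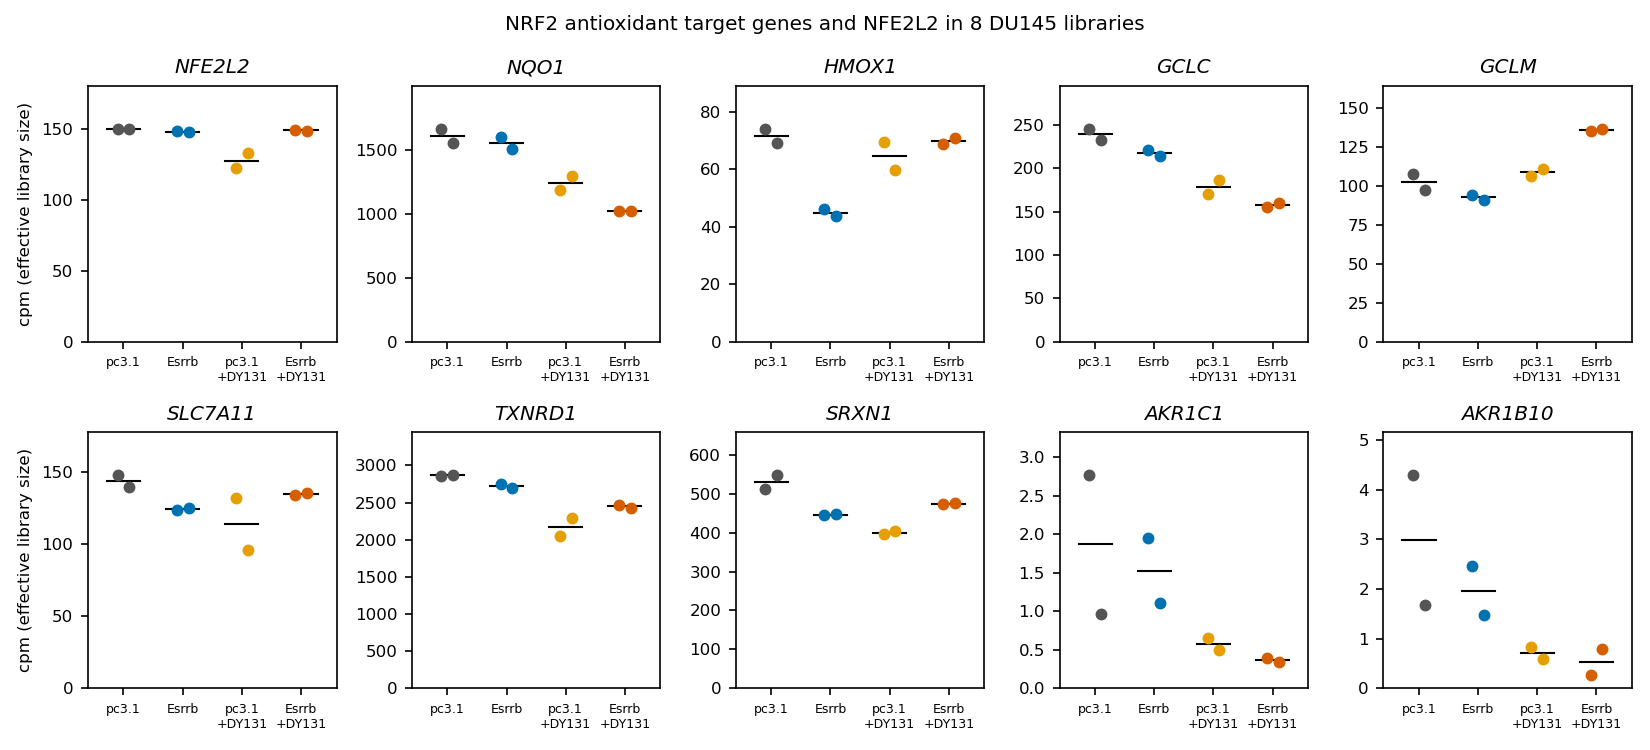
Cpm of effective library size (vertical axes, each from 0) of the 10 genes in the 8 libraries, by group (horizontal axes); points are libraries and lines are group means. HMOX1 is lowest in the 2 untreated DU145-Esrrb libraries (43.6 and 46.1 cpm), and GCLM is highest in the 2 DY131-treated DU145-Esrrb libraries (135.2 and 137 cpm).

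Another property of the libraries moves with the comparisons that involve DY131-treated DU145-Esrrb cells. There the fold change of a gene fell with the share of its transcript that lies at exon junctions, the positions at which a 50-base read would span 2 exons. Spearman's rho between the 2 over 13606 genes was -0.38 for DY131 in DU145-Esrrb cells, -0.48 for Esrrb under DY131 and -0.46 for the difference of the DY131 responses. For DY131 in DU145-pc3.1 cells it was 0.01, and for Esrrb without DY131 it was -0.04. The points share the same libraries. Of the members, GCLC (39.2%), AKR1B10 (28.6%) and TXNRD1 (20.7%) have the most positions at junctions, and SRXN1 (1.85%) the fewest. Fits with an offset for this share were therefore made, and values from them are given beside the results of the members whose call or sign they change. The share was taken from the transcript that the files list and, in a second fit chosen after the data were seen, from the gene's longest transcript. Relative to the fit without an offset, the calls for DY131 in DU145-Esrrb cells went from 2 up and 5 down to 3 up and 2 down with the listed transcript, and to 2 up and 3 down with the longest one. In DU145-pc3.1 cells 8 fell and 0 rose under either. For the difference of the DY131 responses 5 were above 0 and 1 below with the first offset, and 4 and 1 with the second.

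NFE2L2 (NM_001145412, chr2:177227595-177392697 in GRCh38, as for all gene positions here, which are taken from the GENCODE annotation) was counted at 149.9 and 150.1 cpm in DU145-pc3.1, 148.5 and 147.5 in DU145-Esrrb, 122.1 and 132.9 in DY131-treated DU145-pc3.1, and 149.4 and 148.5 in DY131-treated DU145-Esrrb cells. Only the DY131-treated DU145-pc3.1 libraries stood below the rest. The fall there was -0.23 ± 0.06 (adjusted p = 0.00593). With DY131 in DU145-Esrrb cells the change was 0.01 ± 0.06 (95% interval -0.12 to 0.14, adjusted p = 0.908), and its sign changed between settings. Under DY131 the DU145-Esrrb cells were higher by 0.22 ± 0.06 (adjusted p = 0.00607), a value that was 0.11 (adjusted p = 0.199) with the junction offset of the listed transcript. The 2 responses differed by 0.24 ± 0.08 (adjusted p = 0.0368), a call that was lost with either junction offset (0.12 and 0.19, adjusted p = 0.342 and 0.126).

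KEAP1, the sensor that targets NRF2 for degradation, was not called in any comparison, and its libraries ranged from 34.3 to 50.5 cpm. CUL3, the scaffold of the ligase, was at 91.7 and 93.2 cpm in DU145-pc3.1, 99.5 and 95.8 in DU145-Esrrb, 97.1 and 107.9 in DY131-treated DU145-pc3.1, and 86.7 and 84.8 in DY131-treated DU145-Esrrb cells. It fell by 0.19 on the log2 scale with DY131 in DU145-Esrrb cells (adjusted p = 0.0278), a call that was lost with the longest-transcript offset (-0.15, adjusted p = 0.0907). Under DY131 it was lower in DU145-Esrrb cells (-0.26 ± 0.07, adjusted p = 0.00575), and the 2 responses differed by -0.34 ± 0.10 (adjusted p = 0.0136), both also called with either offset. SQSTM1, which encodes the autophagy receptor p62 and competes with NRF2 for KEAP1, was at 504.7 and 499.8 cpm in DU145-pc3.1, 364.3 and 346.1 in DU145-Esrrb, 450.1 and 408.6 in DY131-treated DU145-pc3.1, and 347.7 and 335.7 in DY131-treated DU145-Esrrb cells. Both pairs of DU145-Esrrb libraries lay below both pairs of DU145-pc3.1 libraries. SQSTM1 fell with Esrrb without DY131 (-0.50 ± 0.06, adjusted p = 0.000167) and under DY131 (-0.33 ± 0.06, adjusted p = 0.000358), and it fell with DY131 in DU145-pc3.1 cells (-0.23 ± 0.06, adjusted p = 0.00774).

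The small MAF proteins are the DNA-binding partners of NRF2, and BACH1 is a repressor that competes with it at the same elements. MAFG was at 132.9 and 134.2 cpm in DU145-pc3.1, 119.8 and 115.6 in DU145-Esrrb, 144.5 and 120 in DY131-treated DU145-pc3.1, and 178.6 and 180.4 in DY131-treated DU145-Esrrb cells. The last group was above all other libraries. MAFG rose with DY131 in DU145-Esrrb cells by 0.61 ± 0.07 (adjusted p = 4.89e-06) and differed between the 2 DY131 responses by 0.62 ± 0.11 (adjusted p = 0.000382), and both calls held with either junction offset. In the same cells MAFK changed by 0.42 ± 0.14 (adjusted p = 0.0181), MAFF by 0.27 ± 0.10 (adjusted p = 0.0292) and BACH1 by 0.18 ± 0.07 (adjusted p = 0.0288). With the junction offset of the listed transcript MAFK, MAFF and BACH1 were not called (adjusted p = 0.0724, 0.202 and 0.483), and with that of the longest transcript MAFK alone of the 3 was called (adjusted p = 0.0231). NFE2L1, a related transcription factor, fell with DY131 in DU145-pc3.1 cells by 0.19 on the log2 scale (adjusted p = 0.0122) and was not called in DU145-Esrrb cells (0.12 ± 0.05, adjusted p = 0.0679). The fall was not called with the junction offset of the listed transcript (adjusted p = 0.0583) or of the longest one (adjusted p = 0.0591). Under DY131 NFE2L1 was higher in DU145-Esrrb cells (0.28 ± 0.05, adjusted p = 0.000601), and the 2 responses differed by 0.31 ± 0.08 (adjusted p = 0.00606). Both calls were lost with the offset of the listed transcript (adjusted p = 0.0946 and 0.179) and kept with that of the longest (adjusted p = 0.00904 and 0.0450).

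Of the 8 regulators, 4 rose and 1 fell with DY131 in DU145-Esrrb cells, 0 rose and 2 fell in DU145-pc3.1 cells, and 0 rose and 1 fell with Esrrb alone. Of all tested genes 29.2% rose and 29.5% fell, 18.9% rose and 18.5% fell, and 1.68% rose and 2.50% fell in these comparisons. With the junction offset of the listed transcript 1 rose and 1 fell with DY131 in each pool, and with that of the longest transcript 2 rose and 0 fell in DU145-Esrrb cells. Under DY131, 3 were higher and 2 lower in DU145-Esrrb than in DU145-pc3.1 cells, where 25.1% of all tested genes were higher and 25.3% lower. With the offsets 1 was higher and 2 were lower, or 2 and 2.

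**Figure D2:**
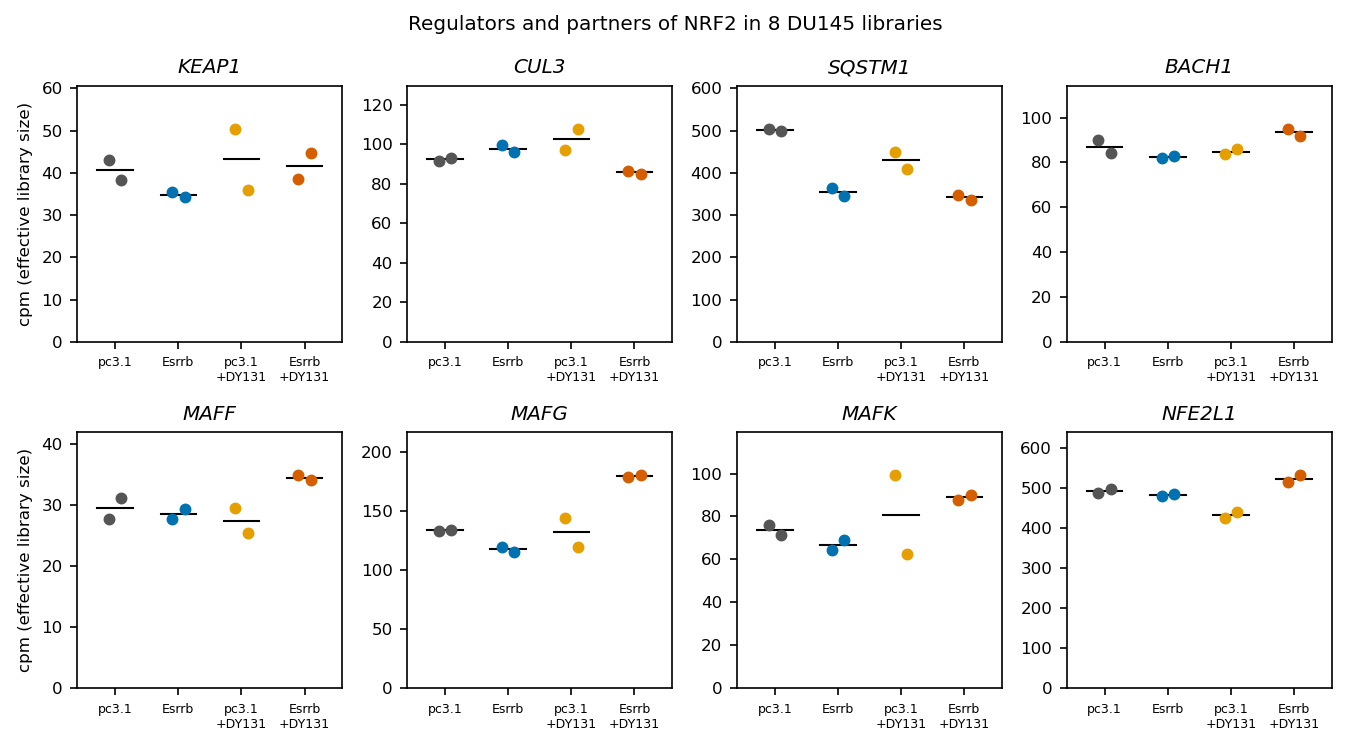
Cpm of effective library size (vertical axes, each from 0) of 8 regulators and partners of NRF2 in the 8 libraries, by group (horizontal axes); points are libraries and lines are group means. MAFG is highest in the 2 DY131-treated DU145-Esrrb libraries (178.6 and 180.4 cpm), and SQSTM1 is lower in the 4 DU145-Esrrb libraries (335.7 to 364.3 cpm) than in the 4 DU145-pc3.1 libraries (408.6 to 504.7 cpm).

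Glutathione synthesis is limited by glutamate-cysteine ligase, whose catalytic subunit is encoded by GCLC and whose modifier subunit is encoded by GCLM, and by the supply of cystine through the transporter SLC7A11. The 2 subunits of the ligase did not respond alike to DY131. GCLM (NM_002061, chr1:93885205-93909456) was at 107.8 and 97.8 cpm in DU145-pc3.1, 94.4 and 91.2 in DU145-Esrrb, 106.6 and 111.2 in DY131-treated DU145-pc3.1, and 135.2 and 137 in DY131-treated DU145-Esrrb cells. The DY131-treated DU145-Esrrb libraries were above all 6 others. GCLM rose with DY131 in DU145-Esrrb cells by 0.55 ± 0.07 (adjusted p = 3.73e-06), while the change in DU145-pc3.1 cells was 0.08 ± 0.07 (adjusted p = 0.339). The 2 responses differed by 0.47 ± 0.09 (adjusted p = 0.00128). The rise in DU145-Esrrb cells ranged from 0.45 to 0.58 over 14 alternative settings and was called in all of them, and the difference of the responses was called in all 16 of its settings (0.33 to 0.54).

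GCLC (NM_001197115, chr6:53497341-53616970) was at 245.8 and 232.9 cpm in DU145-pc3.1, 221 and 213.7 in DU145-Esrrb, 170.3 and 186.5 in DY131-treated DU145-pc3.1, and 155.9 and 160.1 in DY131-treated DU145-Esrrb cells. The 4 groups did not overlap, and both treated groups lay below both untreated groups. The fall with DY131 was -0.42 ± 0.06 in DU145-pc3.1 cells (adjusted p = 6.29e-05) and -0.46 ± 0.06 in DU145-Esrrb cells (adjusted p = 1.29e-05), and the 2 falls differed by -0.04 (95% interval -0.22 to 0.15). With the junction offset of the listed transcript this difference was 0.58 and called (adjusted p = 0.000516), and with that of the longest transcript it was 0.15 (adjusted p = 0.254). The fall in DU145-pc3.1 cells was called in all 16 settings. In DU145-Esrrb cells its direction depends on the junction offset, which gave 0.21 (adjusted p = 0.0162) with the listed transcript of 1800 bases and -0.24 (adjusted p = 0.00512) with the longest transcript of 3813 bases. The listed transcript has 39.2% of its positions at junctions and the longest one 19.5%. Under DY131 GCLC was lower in DU145-Esrrb cells by 0.17 on the log2 scale (adjusted p = 0.0298), which became 0.45 (adjusted p = 9.22e-05) and 0.02 (adjusted p = 0.848) with the 2 offsets.

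The number of reads on GCLC per read on GCLM puts the 2 subunits on 1 scale that does not depend on library size. It was 2.28 and 2.38 in DU145-pc3.1, 2.34 and 2.34 in DU145-Esrrb, 1.60 and 1.68 in DY131-treated DU145-pc3.1, and 1.15 and 1.17 in DY131-treated DU145-Esrrb libraries. The untreated pools overlapped, and each treated pool lay below them without overlap. The group means were 2.33 ± 0.07, 2.34 ± 0.001, 1.64 ± 0.06 and 1.16 ± 0.01 (SD, n = 2). The ratio is of read counts, so it is not a ratio of transcript numbers. In DU145-Esrrb cells it carries the same limit from exon junctions as GCLC itself.

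SLC7A11 (NM_014331, chr4:138164097-138242349) was at 148 and 139.9 cpm in DU145-pc3.1, 123.6 and 125.2 in DU145-Esrrb, 132.3 and 96.1 in DY131-treated DU145-pc3.1, and 134.2 and 135.6 in DY131-treated DU145-Esrrb cells. The 2 DY131-treated DU145-pc3.1 libraries were farther apart than those of any other group. The fall with DY131 in DU145-pc3.1 cells was -0.33 ± 0.10 (adjusted p = 0.0163). It was not called without replicate 2 of the treated group (-0.12, adjusted p = 0.123), without replicate 1 of DU145-pc3.1 (-0.28, adjusted p = 0.122) or with DESeq2 (-0.33, adjusted p = 0.126). In DU145-Esrrb cells the change was 0.12 ± 0.10 (95% interval -0.10 to 0.33, adjusted p = 0.332). The 2 responses differed by 0.45 ± 0.14 (adjusted p = 0.0238), a call that was lost with either junction offset (0.30 and 0.38, adjusted p = 0.128 and 0.0564).

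TXNRD1 and SRXN1 serve the thioredoxin system. TXNRD1 encodes the cytosolic thioredoxin reductase, and SRXN1 encodes sulfiredoxin, which restores overoxidized peroxiredoxins. TXNRD1 (NM_001093771, chr12:104215779-104350305) had 2864 and 2870 cpm in DU145-pc3.1, 2744 and 2697 in DU145-Esrrb, 2050 and 2297 in DY131-treated DU145-pc3.1, and 2470 and 2433 in DY131-treated DU145-Esrrb cells. Per kilobase of transcript it was the highest member in untreated DU145-pc3.1 cells (747 ± 1.13 cpm per kb, SD, n = 2), ahead of NQO1 (552 ± 26.5), SRXN1 (196 ± 9.19) and GCLC (133 ± 5.09, or 62.8 per kb of its longest transcript). NFE2L2 (56.6), HMOX1 (39.3), GCLM (21.2) and SLC7A11 (14.9) followed, and AKR1B10 (1.88) and AKR1C1 (0.279) were lowest. It fell with DY131 in DU145-pc3.1 cells by 0.40 on the log2 scale (adjusted p = 0.000125), in all 16 settings. In DU145-Esrrb cells the change was -0.15 ± 0.06 (adjusted p = 0.0465), a call that was lost when any 1 of the 4 libraries was left out (adjusted p 0.104 to 0.190) and turned to 0.03 with either junction offset (adjusted p = 0.759 and 0.749).

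SRXN1 (NM_080725, chr20:646615-653370) was at 512.7 and 547.6 cpm in DU145-pc3.1, 445.1 and 447.4 in DU145-Esrrb, 396.3 and 403.4 in DY131-treated DU145-pc3.1, and 473 and 476.2 in DY131-treated DU145-Esrrb cells. The 4 groups did not overlap, and the order of the pools was reversed by treatment. SRXN1 fell with Esrrb without DY131 (-0.25 ± 0.06, adjusted p = 0.0170) and was higher with Esrrb under DY131 (0.25 ± 0.06, adjusted p = 0.00171). The first call was lost without replicate 2 of DU145-pc3.1 (adjusted p = 0.226) and without either DU145-Esrrb library (adjusted p = 0.186 and 0.155), and the second was lost with either junction offset (adjusted p = 0.432 and 0.0650). DY131 lowered SRXN1 by 0.41 on the log2 scale in DU145-pc3.1 cells (adjusted p = 4.20e-05), while in DU145-Esrrb cells the change was 0.09 ± 0.06 (adjusted p = 0.181), or -0.04 with the junction offset of the listed transcript. The 2 responses differed by 0.50 ± 0.08 (adjusted p = 0.000226), a call that held in all 16 settings (0.31 to 0.53). Of the 50-base windows of the SRXN1 transcript, 84.8% also occur in an overlapping gene model, AL121758.1, so its counts are uncertain.

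**Figure D3:**
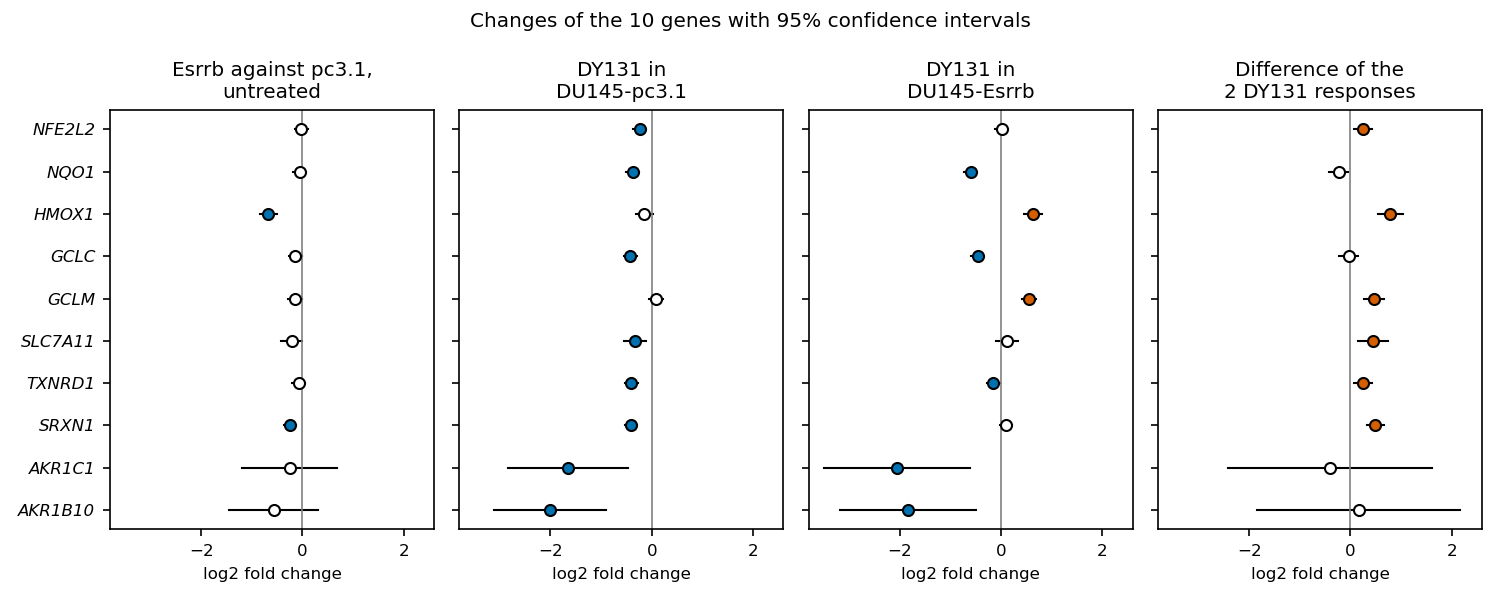
Log2 fold changes (horizontal axes) of the 10 genes with 95% confidence intervals for Esrrb against empty vector without DY131, for DY131 in each pool, and for the difference of the 2 DY131 responses (DU145-Esrrb minus DU145-pc3.1); filled points have an adjusted p below 0.05, orange above 0 and blue below 0. In the second panel 8 filled points lie below 0, and in the third HMOX1 (0.63) and GCLM (0.55) lie above 0; without an offset GCLC (-0.46) and TXNRD1 (-0.15) lie below 0 there, and with the junction offset of the listed transcript they are at 0.21 and 0.03.

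NQO1 encodes a quinone reductase that converts quinones to hydroquinones without a radical intermediate, and it is one of the most used NRF2 readouts. NQO1 (NM_000903, chr16:69706996-69726951) was at 1663 and 1554 cpm in DU145-pc3.1, 1601 and 1504 in DU145-Esrrb, 1187 and 1293 in DY131-treated DU145-pc3.1, and 1024 and 1022 in DY131-treated DU145-Esrrb cells. The untreated pools overlapped, and each treated pool was lower than both. NQO1 fell with DY131 by -0.38 ± 0.06 in DU145-pc3.1 cells (adjusted p = 0.000224) and by -0.60 ± 0.06 in DU145-Esrrb cells (adjusted p = 9.26e-07). Both falls were called in every setting tried, with ranges of -0.44 to -0.30 and -0.68 to -0.56. The difference of the 2 responses, -0.23 ± 0.09, missed the threshold (adjusted p = 0.0576). It was called below 0 in 8 of its 16 alternative settings, among them DESeq2 (-0.23, adjusted p = 0.035), both junction offsets (-0.34 and -0.26, adjusted p = 0.0150 and 0.0453) and the fit without replicate 1 of DY131-treated DU145-pc3.1 cells (-0.30, adjusted p = 0.000699).

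HMOX1 encodes the inducible haem oxygenase, which releases iron, carbon monoxide and biliverdin from haem and which BACH1 represses. HMOX1 (NM_002133, chr22:35380361-35394214) was at 74 and 69.1 cpm in DU145-pc3.1, 46.1 and 43.6 in DU145-Esrrb, 69.2 and 59.7 in DY131-treated DU145-pc3.1, and 68.6 and 70.7 in DY131-treated DU145-Esrrb cells. The untreated DU145-Esrrb libraries stood below all others, and the treated DU145-Esrrb libraries were within the range of the untreated and treated DU145-pc3.1 libraries. Between the untreated pools HMOX1 was lower in DU145-Esrrb cells, with a change of -0.67 on the log2 scale, or 0.627-fold (adjusted p = 0.000174). DY131 raised it in DU145-Esrrb cells by 0.63 ± 0.08, or 1.55-fold (adjusted p = 1.16e-05), and left a change of -0.15 ± 0.08 in DU145-pc3.1 cells (95% interval -0.32 to 0.02, adjusted p = 0.156). The latter ran from -0.25 to -0.046 when 1 library was left out, and it was called without replicate 1 of DY131-treated DU145-pc3.1 cells (-0.25, adjusted p = 0.0141). The 2 responses differed by 0.78 ± 0.12 (adjusted p = 0.000130). The difference of the untreated pools (-0.72 to -0.62), the rise in DU145-Esrrb cells (0.57 to 0.87) and the difference of the responses (0.68 to 0.88) were called in every setting tried. Of the 10 members, HMOX1 was the only one called in opposite directions for Esrrb alone and for DY131 in DU145-Esrrb cells; both of these comparisons use the untreated DU145-Esrrb libraries.

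AKR1C1 and AKR1B10 encode aldo-keto reductases that reduce steroids, aldehydes and retinals with NADPH. They were close to the limit of detection, and their counts are given as reads. AKR1C1 (NM_001353, chr10:4963253-4983283) had 29 and 11 reads in DU145-pc3.1, 23 and 12 in DU145-Esrrb, 7 and 5 in DY131-treated DU145-pc3.1, and 3 and 3 in DY131-treated DU145-Esrrb libraries. The treated libraries lay below all untreated ones, while the 2 untreated libraries of each pool were far apart. Over the pooled reads the treated to untreated ratio was 0.308 in DU145-pc3.1 cells (95% exact binomial interval 0.147 to 0.598) and 0.225 in DU145-Esrrb cells (0.0775 to 0.541). These intervals, and those of AKR1B10 below, treat the summed reads of the 2 libraries of a group as independent. They therefore leave out the variation between libraries and are too narrow where libraries differ. The fitted changes were -1.65 ± 0.55 (adjusted p = 0.0283) and -2.05 ± 0.68 (adjusted p = 0.0168). The first was -0.73 (adjusted p = 0.432) without replicate 1 of DU145-pc3.1 and -1.47 (adjusted p = 0.0605) without replicate 2 of the treated group, and DESeq2 did not call it (adjusted p = 0.112). The second was -1.57 (adjusted p = 0.135) without replicate 1 of DU145-Esrrb, and it was not called without the first (-2.15, adjusted p = 0.0737) or the second DY131-treated library (-1.95, adjusted p = 0.107).

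AKR1B10 (NM_020299, chr7:134527592-134541408) had 45 and 19 reads in DU145-pc3.1, 29 and 16 in DU145-Esrrb, 9 and 6 in DY131-treated DU145-pc3.1, and 2 and 7 in DY131-treated DU145-Esrrb libraries. Again the treated libraries lay below the untreated ones. The pooled ratios were 0.240 (0.127 to 0.427) and 0.263 (0.113 to 0.545), and the fitted changes were -2.01 ± 0.52 (adjusted p = 0.00637) in DU145-pc3.1 and -1.84 ± 0.63 (adjusted p = 0.0202) in DU145-Esrrb cells. Without replicate 1 of DU145-pc3.1 the first was -1.19 (adjusted p = 0.145). The second was -1.42 (adjusted p = 0.145) without replicate 1 of DU145-Esrrb and -1.31 (adjusted p = 0.162) without the first DY131-treated library, and it missed the threshold with both junction offsets (adjusted p = 0.0552 and 0.0657). Near-identical relatives share 28.7% of the 50-base windows of AKR1C1, mostly AKR1C2, and 17.4% of those of AKR1B10, mostly AKR1B15, so reads may have been split between them. AKR1B10 had the widest range of group means of the 10 genes (2.11 on the log2 cpm scale). The genes whose log2 cpm followed it most closely over the 8 libraries were ITGB8 (Pearson's r 0.987), SYNPO (0.986) and EPOR (0.971), a description over libraries that share the same 4 groups.

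**Figure D4:**
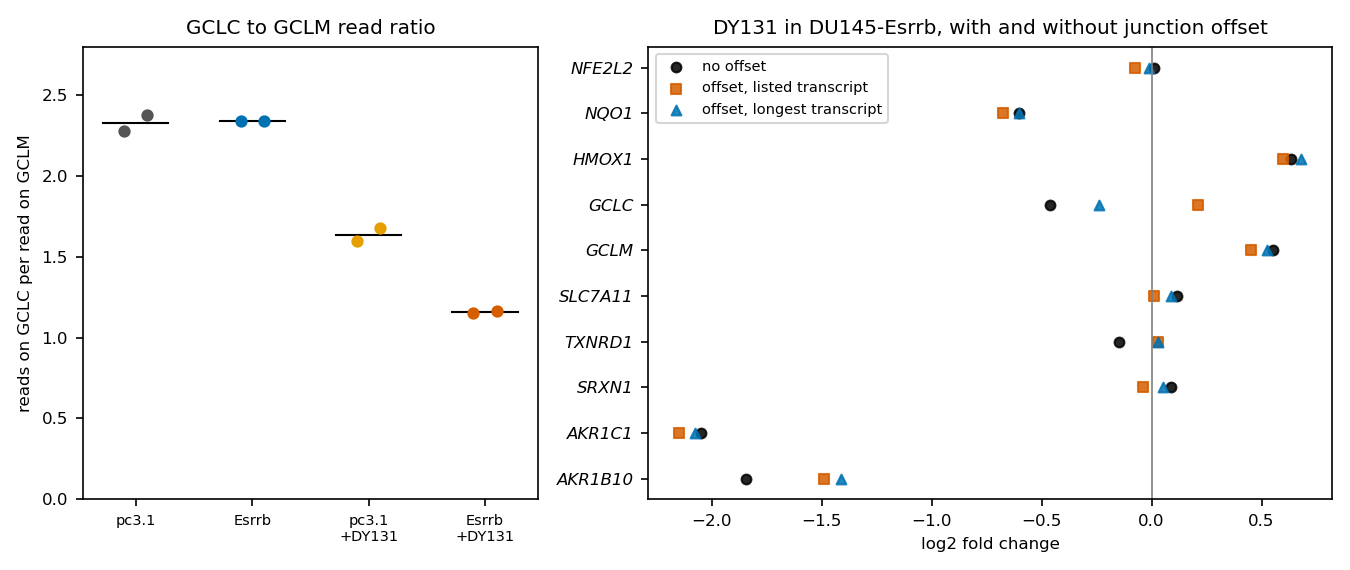
Left, reads on GCLC per read on GCLM (vertical axis from 0) in the 8 libraries by group, with lines at the group means of 2.33, 2.34, 1.64 and 1.16. Right, log2 fold changes (horizontal axis) of the 10 genes for DY131 in DU145-Esrrb cells. Circles are without an offset, squares with an offset for the junction share of the listed transcript, and triangles with that of the longest transcript. HMOX1, GCLM, SLC7A11, NQO1, AKR1C1 and AKR1B10 keep their sign. GCLC moves from -0.46 to 0.21 and -0.24, and TXNRD1 from -0.15 to 0.03 with either offset. NFE2L2 moves from 0.0090 to -0.076 and -0.0096, and SRXN1 from 0.089 to -0.041 and 0.051.

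As a share of all counted reads the 10 genes took 0.586% and 0.573% in DU145-pc3.1, 0.554% and 0.537% in DU145-Esrrb, 0.427% and 0.444% in DY131-treated DU145-pc3.1, and 0.450% and 0.448% in DY131-treated DU145-Esrrb libraries. Both treated groups were below both untreated groups. NQO1 and TXNRD1 made up 75.4% to 80.1% of these reads, so the share mostly follows the 2 of them. AKR1C1 and AKR1B10 contributed 5 to 74 reads together in a library.

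Beyond the members, 65 other genes of glutathione, thioredoxin, NADPH, iron and haem metabolism and of detoxification were listed, of which 60 passed the filter. The list was made with earlier results of these data known, so the shares of all genes are set beside its counts as a description. AKR1C2, CES1, GGT1, GPX2 and UGT1A6 did not pass it. With DY131, 27 of the 60 fell and 4 rose in DU145-pc3.1 cells (median -0.18), and 45 fell and 6 rose in DU145-Esrrb cells (median -0.62, and -0.26 or -0.35 with the junction offset of the listed or the longest transcript). Of all tested genes 18.5% fell and 18.9% rose in DU145-pc3.1 cells, and 29.5% fell and 29.2% rose in DU145-Esrrb cells, which is also the background of the groups described next. With those offsets 37 fell and 5 rose, or 36 fell and 6 rose. Between the untreated pools 4 were lower in DU145-Esrrb cells, CBR3 (-0.77), ABCB6 (-0.49), ABCC3 (-0.49) and NQO2 (-0.42), and 0 higher, against 2.50% and 1.68% of all genes. These 4 calls are unstable: leaving out 1 library left 0 or 1. ABCB6 shares 90.8% of its 50-base windows with other gene models, so its counts are uncertain.

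The NADPH-producing enzymes, on which glutathione and thioredoxin reductases and NQO1 depend, fell in 6 of 6 cases with DY131 in DU145-Esrrb cells and in 5 of 6 in DU145-pc3.1 cells. With either junction offset 4 of 6 fell in each. IDH1, the cytosolic isocitrate dehydrogenase, changed by -0.88 ± 0.10 in DU145-pc3.1 (adjusted p = 7.51e-06) and -0.70 ± 0.10 in DU145-Esrrb cells (adjusted p = 2.10e-05). IDH1 was picked here after its values were seen.

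Of the 15 tested glutathione genes, 13 fell and 2 rose with DY131 in DU145-Esrrb cells (13 fell and 1 rose with either offset), against 7 and 1 in DU145-pc3.1 cells. GSTM1 and GSTM2, glutathione transferases of the mu class, changed by -2.23 ± 0.17 (adjusted p = 4.21e-08) and -2.21 ± 0.42 (adjusted p = 0.000332) in DU145-Esrrb cells. Their changes in DU145-pc3.1 cells were -0.03 (adjusted p = 0.867) and 0.18 (adjusted p = 0.698). GSTM1 was at 12.7 and 13 cpm in DU145-pc3.1, 17.7 and 16.9 in DU145-Esrrb, 12.2 and 13 in DY131-treated DU145-pc3.1, and 4.30 and 3.17 in DY131-treated DU145-Esrrb libraries, so the last group stood alone. GSTM1 and GSTM2 share 58.5% and 74.6% of their windows with related genes, and their separate values are uncertain. GSTA4, which conjugates lipid aldehydes, fell in both pools (-1.13 and -1.61), while the selenoprotein GPX3 rose in both (0.34 and 0.52).

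In the thioredoxin group, TXN itself, the substrate of thioredoxin reductase, was at 263.2 and 287.6 cpm in DU145-pc3.1, 233.5 and 246.2 in DU145-Esrrb, 269.3 and 312.8 in DY131-treated DU145-pc3.1, and 52.4 and 49.3 in DY131-treated DU145-Esrrb cells. The last group was far below all others. TXN fell by 2.24 on the log2 scale with DY131 in DU145-Esrrb cells, to 0.212-fold (adjusted p = 1.91e-11), and it was at 0.08 ± 0.07 in DU145-pc3.1 cells (adjusted p = 0.409). The difference of the 2 responses was -2.32 ± 0.11 (adjusted p = 7.67e-10), or -2.07 and -2.03 with the junction offsets. Of the 11 thioredoxin genes 6 fell and 1 rose in DU145-Esrrb cells, and 1 fell and 1 rose in DU145-pc3.1 cells. GLRX2, a mitochondrial glutaredoxin, rose in both pools (0.48 and 0.61).

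Of the 7 iron and haem genes, 4 fell and 1 rose with DY131 in DU145-pc3.1 cells, and 5 fell and 2 rose in DU145-Esrrb cells (3 and 2, or 2 and 2, with the junction offsets). FTL, the ferritin light chain (-0.79 and -0.94), and the biliverdin reductases BLVRB (-0.64 and -0.71) and BLVRA (-0.28 and -0.43) fell in both pools. The fall of BLVRA in DU145-Esrrb cells was not called with either offset (0.011 and 0.17). HMOX2, the constitutive haem oxygenase, rose in both pools (0.73 ± 0.08, adjusted p = 4.45e-06, and 0.83 ± 0.08, adjusted p = 3.14e-07), whereas HMOX1 rose in DU145-Esrrb cells and missed the threshold in DU145-pc3.1 cells. FTH1, the ferritin heavy chain, had 2329 and 2319 cpm in DU145-pc3.1, 2450 and 2347 in DU145-Esrrb, 1786 and 1833 in DY131-treated DU145-pc3.1, and 2653 and 2754 in DY131-treated DU145-Esrrb cells. It fell with DY131 in DU145-pc3.1 cells (-0.36 ± 0.06, adjusted p = 0.000133) and rose in DU145-Esrrb cells (0.17 ± 0.06, adjusted p = 0.0146), and the 2 responses differed by 0.53 ± 0.08 (adjusted p = 0.000130). FTH1 was thus opposite in sign in the 2 pools, also with either offset. Of the 50-base windows of FTH1, 40.4% are shared with its pseudogenes, mostly FTH1P10, so its counts are uncertain. The same holds for FTL, which shares 18.3% of its windows with its pseudogenes, mostly FTLP3. FTL, BLVRA and BLVRB were picked here after their values were seen.

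Of the 16 tested genes of detoxification and export, 8 fell and 1 rose with DY131 in DU145-pc3.1 cells, and 12 fell and 1 rose in DU145-Esrrb cells (7 and 1, or 8 and 2, with the junction offsets). They include 3 further aldo-keto reductases, AKR1C3, AKR1B1 and AKR1A1, and each fell in both pools, also with either offset. AKR1B1 changed by -0.39 and -0.71 (-0.26 and -0.47 in DU145-Esrrb cells with the offsets) and AKR1A1 by -0.33 and -0.73 (-0.24 and -0.40), and both were picked here after their values were seen. AKR1C3 had 88 and 64 reads in DU145-pc3.1, 81 and 58 in DU145-Esrrb, 28 and 24 in DY131-treated DU145-pc3.1, and 11 and 19 in DY131-treated DU145-Esrrb libraries. Its changes were -1.48 ± 0.26 (adjusted p = 0.000432) and -1.75 ± 0.30 (adjusted p = 0.000148). In DU145-Esrrb cells the change was -0.97 (adjusted p = 0.0144) and -1.48 (adjusted p = 0.000502) with the offsets. The listed transcript of AKR1C3 has 41.8% of its positions at junctions. AKR1C3 shares 23.0% of its windows with related genes, mostly AKR1C2, so its counts are uncertain. EPHX1, the microsomal epoxide hydrolase, fell by 0.99 on the log2 scale in DU145-pc3.1 cells. The conjugate exporter ABCC2 rose in DU145-pc3.1 cells (1.55 ± 0.17, adjusted p = 5.57e-06) and fell in DU145-Esrrb cells (-0.75 ± 0.20, adjusted p = 0.00433). The fall was not called with the junction offset of the listed transcript (-0.44, adjusted p = 0.0719) or of the longest one (-0.38, adjusted p = 0.116). The difference of the 2 ABCC2 responses was -2.30 ± 0.26 (adjusted p = 1.13e-05). CBR1, a carbonyl reductase, was higher by 0.53 ± 0.06 with Esrrb under DY131 (adjusted p = 5.24e-06), as was the peroxidase GPX1 by 0.46 ± 0.07 (adjusted p = 0.000100). GPX1 shares 21.5% of its windows with its pseudogenes, mostly GPX1P1, so its counts are uncertain.

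Under DY131, 5 of the 60 other genes were higher and 34 lower in DU145-Esrrb than in DU145-pc3.1 cells, and 11 and 21, or 12 and 25, with the junction offsets, where 25.1% of all tested genes were higher and 25.3% lower without an offset. Of the members 4 were higher (NFE2L2, GCLM, TXNRD1 and SRXN1) and 2 lower (NQO1 and GCLC). With either offset 3 members were higher and 1, NQO1, lower. GCLM and TXNRD1 were among the 3 each time, joined by GCLC with the listed transcript and by NFE2L2 with the longest. TXNRD1 was not called there without replicate 1 of DY131-treated DU145-pc3.1 cells or without either DY131-treated DU145-Esrrb library (0.08, 0.16 and 0.18), nor GCLC without replicate 2 of the former or either of the latter (-0.11, -0.16 and -0.20). For the difference of the DY131 responses 3 of the 60 were above 0 (FTH1, CBR1 and ALDH3A2) and 24 below, or 4 and 13, or 7 and 16 with the offsets. These 2 comparisons share the DY131-treated libraries of both pools.

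**Figure D5:**
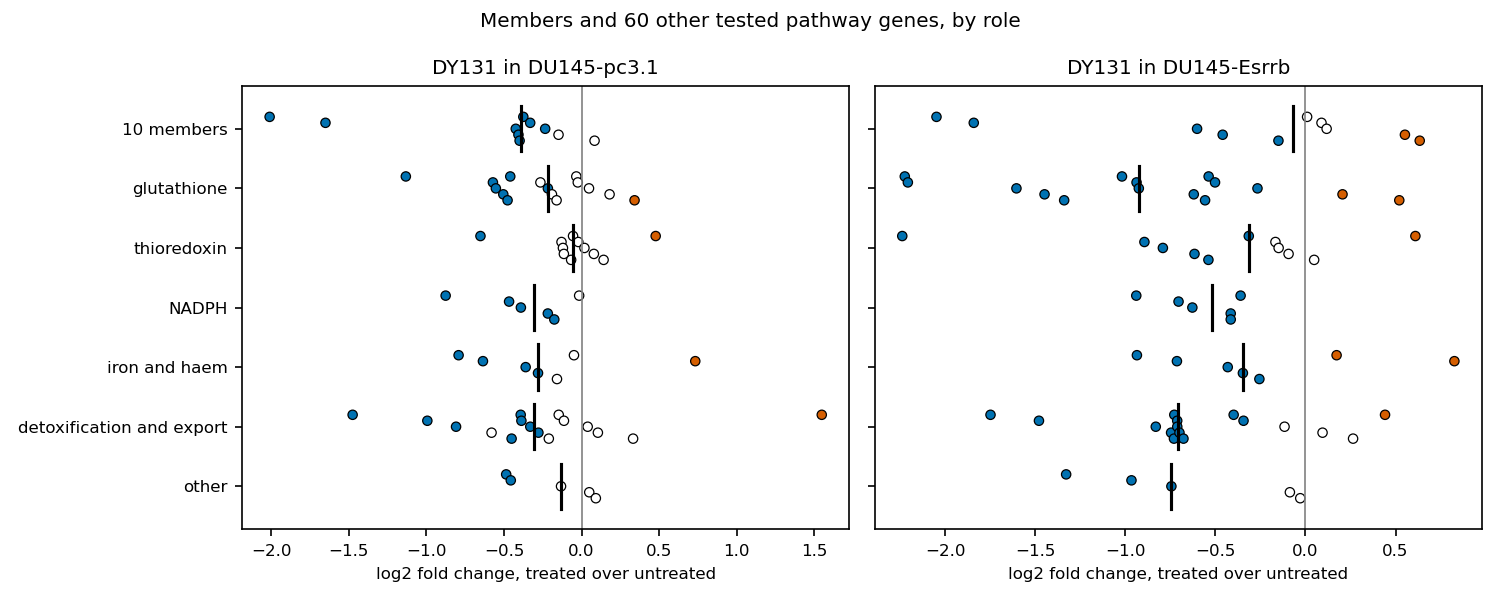
Log2 fold changes with DY131 (horizontal axes) in DU145-pc3.1 (left) and DU145-Esrrb cells (right) for the 10 members and for 60 other tested genes by role (rows); each point is a gene, filled if its adjusted p is below 0.05 (orange above 0, blue below 0), black lines are medians, and the horizontal scales of the panels differ. In DU145-Esrrb cells the medians of the other groups, plotted without an offset, lie below that of the members (-0.07), with glutathione genes at -0.93; with the junction offsets these are at -0.49 and -0.84, while iron and haem genes (0.011 and 0.12) lie above the members (-0.014 and 0.0091).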

How the data were processed

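RNA-seq libraries were made with a stranded mRNA kit and sequenced as 50-base single reads, all 8 in 1 lane. The authors aligned trimmed reads to hg18 using TopHat2, counted them per gene with MULTICOM-MAP, their own program, and deposited these raw counts. How it treated strand and multiply mapped reads is not given in the sources used here. Per the submitters' processing notes, edgeR was used for their tests.

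Here counts were filtered at 1 cpm in at least 2 libraries and normalized by TMM (0.971 to 1.02). The 4 groups were fitted in 1 model with edgeR's quasi-likelihood test (edgeR 4.0.16, limma 3.58.1 and DESeq2 1.42.0 in R 4.3.3; mgcv 1.9.3 for offsets; Python 3.11.15). The comparisons were Esrrb without and with DY131, DY131 in each pool, and their interaction. This differs from the exact test of the study, which was run as an alternative. The model was tested on simulated data. Alternatives were other tests, scalings and filters, offsets for junction share or for length and GC content, the compared libraries alone, a replicate block and leaving out each library. Coordinates and sequence properties come from GRCh38, not from hg18, by RefSeq identifier (22019 genes) or symbol (722), with 650 unmatched.

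All 10 members and 8 regulators are named. Of the other pathway genes, the rule named the 3 called genes with the largest change in each direction and comparison, and the 3 genes most alike to the member of widest range. The members and lists were chosen with earlier results of these data known. The 2 DY131-treated DU145-Esrrb columns share a heading, so their replicate numbers are unknown, and they are called first and second in file order. Titles number all 8 samples, but columns could be matched to these numbers for the other 6 libraries alone. Libraries with the same number in their titles did not deviate together (correlations -0.07 to 0.09). Values of 2 listed genes are not reported here.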

Additional observations from a re-analysis of the deposited data

Results flagged for a closer look

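The response to DY131 differed between the 2 cell pools for 6 of the 10 genes (interaction term, edgeR quasi-likelihood test, adjusted p below 0.05), each with a higher value in DU145-Esrrb cells. Of all tested genes 16.1% differed in this direction and 17.6% in the other. This comparison follows the junction share (Spearman's rho -0.46). With the junction offsets 5 members were called above 0 and 1 below, or 4 and 1. Without an offset, and given as the response in DU145-Esrrb minus that in DU145-pc3.1 cells on the log2 scale, the differences were 0.78 for HMOX1, 0.50 for SRXN1, 0.47 for GCLM, 0.45 for SLC7A11, 0.25 for TXNRD1 and 0.24 for NFE2L2. Those of HMOX1, SRXN1 and GCLM were called in all 16 alternative settings. Those of SLC7A11, TXNRD1 and NFE2L2 were called in 7, 9 and 5 of 16. That of NQO1 (-0.23), which missed the threshold, was called below 0 in 8 of 16. For HMOX1 the difference combines a rise in DU145-Esrrb cells (0.63) with a change in DU145-pc3.1 cells that missed the threshold (-0.15), for GCLM it combines 0.55 with 0.08, and for SRXN1 it combines 0.09 with a fall of -0.41.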

How the results depend on the processing

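With the 2-fold threshold added, 0, 2, 2, 0 and 0 members passed for Esrrb alone, DY131 in DU145-pc3.1, DY131 in DU145-Esrrb, Esrrb under DY131 and the interaction (2, 8, 7, 6 and 6 without it), and 0, 3, 10, 6 and 5 other pathway genes (4, 31, 51, 39 and 27 without it). Leaving out 1 library gave 1 to 2, 5 to 9, 4 to 6, 4 to 7 and 3 to 6 members, and 0 to 1, 25 to 34, 46 to 48, 34 to 43 and 21 to 35 other genes. For the interaction 3 members were left without either DU145-Esrrb library or either DY131-treated DU145-Esrrb library. For Esrrb alone the other genes called were 1 with DESeq2, 9 without a filter and 10 in the 4 libraries alone, and the 6 numbered libraries gave 1 member. The junction offset left 17 other genes in the interaction, and the length and GC offset turned the split for DY131 in DU145-pc3.1 cells from 4 up and 27 down to 12 and 24.

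Signs changed for 16 combinations of gene, comparison and setting outside the single-library fits. HMOX1 with DY131 in DU145-pc3.1 cells was 0.016 with the length and GC offset. With DY131 in DU145-Esrrb cells NFE2L2 was -0.053 by library size, -0.028 with 10 counts required, -0.0040 in the 4 libraries alone, -0.076 with the junction offset and -0.0096 with the longest-transcript offset, GCLC 0.21, TXNRD1 0.027 and SRXN1 -0.041 with the junction offset, and TXNRD1 0.028 with the longest-transcript offset. For Esrrb under DY131 GCLC was 0.45 and 0.018 with the 2 offsets and AKR1B10 0.019 with the second. For the interaction GCLC was 0.58 and 0.15 with the 2 offsets and 0.030 with length and GC. Leaving out 1 library gave sign changes within -0.84 to 0.66 (AKR1C1) and -1.11 to 0.24 (AKR1B10) for Esrrb alone, -0.00189 to 0.012 (NFE2L2) for DY131 in DU145-Esrrb, -1.44 to 0.13 (AKR1B10) for Esrrb under DY131, and -1.33 to 0.19 (AKR1C1), -0.87 to 0.71 (AKR1B10) and -0.12 to 0.030 (GCLC) for the interaction. Each fit with an offset differed from the main fit in that correction alone. Some of the same signs also changed in other settings, and the cause of the sign changes was not tested.

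The replicate numbers in the titles did not pair the libraries. With the replicate block in the 6 numbered libraries, 2 and 8 members and 4 and 30 other genes were called for Esrrb alone and for DY131 in DU145-pc3.1 cells. With 2 libraries a group and 2 to 45 reads a library, depth limits AKR1C1 and AKR1B10 most.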
